A study of Homo sapiens with 10 samples.

Results

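*ATL2*, *IRX3*, *NCAM2* and *PDCD4* lie at or beside the TRPS1 ChIP-seq peaks with the highest fold enrichment over input in T47D cells, and these 4 genes out of the 19695 genes counted by RNA-seq are described here. They were chosen by the fold enrichment that the study's peak annotation gives to 1844 peaks, so the strength of binding is the reason for the choice and not a finding. T47D is an established cell line of luminal, oestrogen receptor-positive breast cancer. Chromatin was immunoprecipitated with antibodies against TRPS1 in 2 libraries beside 2 input libraries. RNA was sequenced 72 h after transfection of control siRNA, *TRPS1* siRNA or *CHD4* siRNA, with 2 libraries in each group, so every group shares the cell line and the transfection, and no group carries both knockdowns. The comparisons address whether the genes beside the strongest TRPS1 binding change their transcript level upon silencing *TRPS1* or *CHD4*.

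TRPS1 is an atypical member of the GATA family of zinc finger transcription factors. It recognises GATA sequences and is known mainly as a transcriptional repressor. CHD4 is the chromatin remodelling ATPase of the NuRD complex, which also holds histone deacetylases and is recruited by sequence-specific repressors. The 4 genes act in different processes. *ATL2* encodes atlastin 2, a GTPase that fuses tubules of the endoplasmic reticulum (ER). *IRX3* encodes a homeodomain transcription factor of the Iroquois family. *NCAM2* encodes an immunoglobulin-type cell adhesion molecule best known from neurons. PDCD4 binds the RNA helicase eIF4A and inhibits cap-dependent translation initiation.

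Binding took a different position at each of the genes, which the map of peaks around them shows. Positions are those of the deposited peak list in hg38, counted from 1, and gene positions are those of RefSeq in GRCh38.p14, which gives gene spans here without exons. The leading peak of *ATL2*, chr2:38377053-38377619, covered a transcription start of the gene itself. The leading peak of *NCAM2*, chr21:21238738-21239291, lay inside the gene. Its centre lay 240.6 kb from the outermost start of the gene and 91.9 kb from the inner start that the RefSeq promoter table holds. The leading peak near *PDCD4*, chr10:110790654-110791603, lay inside the neighbouring gene *RBM20*, 80.3 kb from *PDCD4*. The leading peak of *IRX3*, chr16:54425578-54426321, lay in no annotated gene, 139 kb from *IRX3*.

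The deposited list gives positions only, so width is the one measure of a peak that can be compared here. Width comes from the same peak call as the fold enrichment used for the choice. The ranks are thus a description and no independent sign of strong binding. The leading peak of *PDCD4* was 950 bp wide, which ranked 16 among the 1844 peaks. The leading peak of *IRX3* measured 744 bp and ranked 42. Those of *ATL2* and *NCAM2* were narrower, at 567 bp and 554 bp, and ranked 112 and 120. The median peak measured 288 bp, within a range from 207 to 1745 bp. The peaks just outside the choice were 490 bp wide (chr17:8173227-8173716, inside *TMEM107*) and 514 bp wide (chr7:110282982-110283495, in no annotated gene). They stand beside *SNORD118* and *EIF3IP1* in the study's annotation.

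The *ATL2* peak stood alone, and the others did not. No other TRPS1 peak lay within 1000 kb of it. The median peak had 1 other peak within 500 kb, and 553 peaks (30.0%) had none, so an isolated peak was common in this list. The leading peak of *NCAM2* had 4 other peaks within 500 kb, and all 4 lay inside *NCAM2*. A cluster of 3 of these, 375, 306 and 227 bp wide, lay between 208 and 213 kb from the leading peak towards the outermost start and beyond the inner one. The fifth peak in the gene, 207 bp wide, lay 30.0 kb from the leading peak on the other side. At *IRX3* the leading peak was flanked by narrower peaks 1.64 kb and 0.689 kb from its centre, and it had in all 3 other peaks within 500 kb and 7 within 1000 kb. Within 1000 kb, 3 peaks lay in *FTO*, a gene known for intronic elements that act on *IRX3* at a distance, and 1 lay in *CRNDE*, next to *IRX5*. Near *PDCD4*, a narrower peak of 275 bp (chr10:110886141-110886415) lay inside *PDCD4* itself and another of 301 bp lay inside *BBIP1*.

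**Figure D1:**
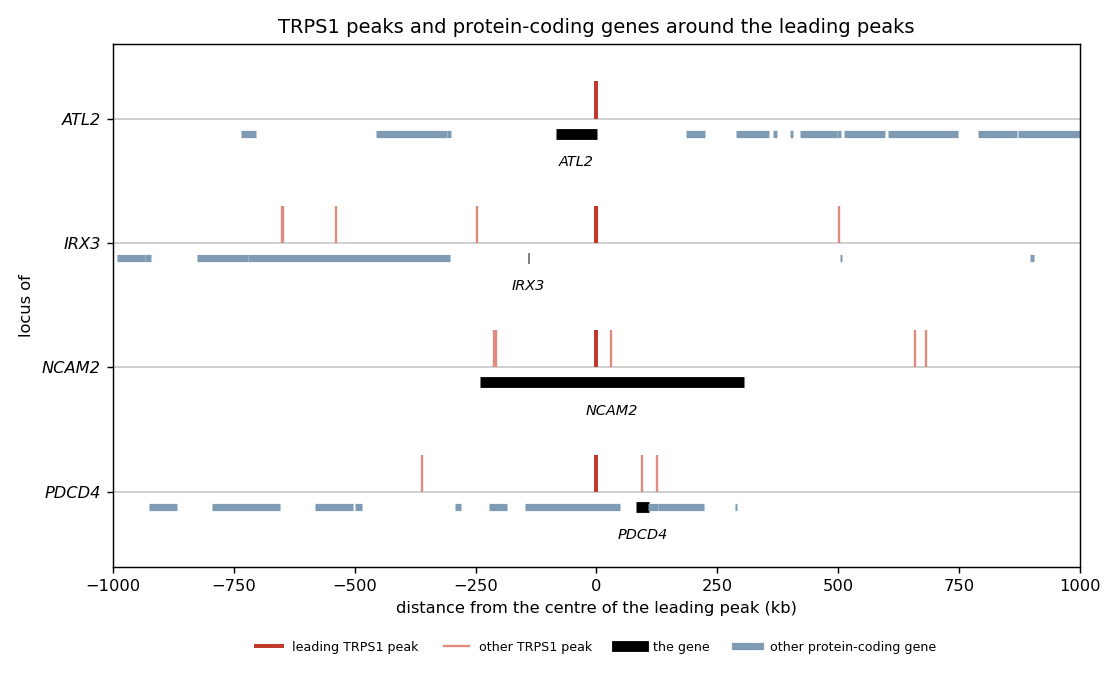
TRPS1 peaks (vertical bars) and RefSeq protein-coding genes (horizontal bars) around the leading peak of each gene. The x axis gives the distance from the centre of the leading peak in kb, up to 1000 kb to each side, and each row is 1 locus. The *ATL2* peak stands at its gene with no other peak in the window, *NCAM2* holds 5 peaks along its length, and the leading peaks of *IRX3* and *PDCD4* lie outside their genes.

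The *ATL2* promoter is the only promoter among these genes that the leading peak covered, and its sequence is shown because it carries the GATA letters that TRPS1 is known to read. The 250 bases before 2 *ATL2* transcription starts are given from RefSeq (GRCh38.p14, minus strand), with every GATA or its reverse complement TATC in capitals. The covered stretch is chr2:38377274-38377523, and the stretch before the gene's outermost start, outside the peak, is chr2:38378585-38378834.
ATL2 covered start: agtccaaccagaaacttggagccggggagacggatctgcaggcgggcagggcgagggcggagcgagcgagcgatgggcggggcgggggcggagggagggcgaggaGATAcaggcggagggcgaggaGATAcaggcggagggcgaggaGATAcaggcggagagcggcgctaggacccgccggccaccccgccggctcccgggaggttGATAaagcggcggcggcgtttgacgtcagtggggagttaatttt
ATL2 outermost start: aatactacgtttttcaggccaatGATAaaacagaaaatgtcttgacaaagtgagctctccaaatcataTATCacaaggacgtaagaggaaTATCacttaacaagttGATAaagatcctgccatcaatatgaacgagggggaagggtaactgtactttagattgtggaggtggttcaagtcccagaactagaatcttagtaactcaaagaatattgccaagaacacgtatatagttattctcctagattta
ATL2 repeat unit: ggagggcgaggaGATAcaggc

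The covered start lies 63 bp from the centre of the peak. Its promoter holds 4 GATA, at 145, 124, 103 and 44 bases before the start, all on the strand of the gene. The 3 farthest from the start are AGATAC and belong to a unit of 21 bases that stands in 3 copies in a row, shown as the repeat unit. The nearest is TGATAA. It is the only match there to the full hexamer of the GATA family, which is GATA with A or T before it and A or G after it, searched on both strands. The outermost start also has 4 matches to GATA or TATC, including TGATAA at 227 and 144 bases before it, but it lies 1.25 kb from the peak centre and the peak does not reach it. The remaining *ATL2* window in RefSeq has no match to either.

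Among all 35116 RefSeq promoter windows (250 bases before to 50 after a start), 49.7% hold GATA or TATC and 24.97% hold a hexamer. Of the 38 windows wholly inside a TRPS1 peak, 76.3% hold GATA or TATC and 57.9% hold a hexamer. At least 4 GATA or TATC occur in 4.10% of all windows. The share was 5.26% (2 of 38) among those wholly inside a peak and 2.71% among the 369 that touch one. A long unit, such as that of 21 bases in *ATL2*, stands in at least 3 exact copies in a row in 0.379% of all windows (133). Units of only a few bases were not searched for. The covered *ATL2* window is rich in G and C, at 68.3% against a median of 58.7% over all windows, and holds its 4 GATA within that sequence. The *NCAM2* window holds 1 match to GATA or TATC and no hexamer, and that of *PDCD4* holds neither. The window of *PDCD4-AS1*, the antisense gene next to *PDCD4*, holds 1 hexamer. A match describes letters in a window and does not show that TRPS1 was bound to them.

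RNA-seq libraries held between 10333138 and 14668358 counts, and 3 counts, taken as the limit of detection, equal 0.197 to 0.288 CPM (counts scaled to library size). All 4 genes were far above this limit and passed the filter on low counts (over 2 CPM in at least 2 libraries), as did 13269 genes in all. Levels below are CPM scaled by TMM factors over the 6 libraries and differ in scale between genes with transcript length, so they are compared only within a gene. Control library 1 stood apart from the other 5 on the principal component that held 63.4% of the variance, at -114 against 8.86 to 31.2. The 2 control libraries differed by a median of 1.68-fold per gene, against 1.16-fold for *TRPS1* siRNA and 1.21-fold for *CHD4* siRNA. All 10 luminal breast markers searched were detected, with a summed level of 12816 and 16096 CPM in the control, 6830 and 6987 CPM in the *TRPS1* siRNA and 5780 and 7949 CPM in the *CHD4* siRNA libraries. Of other cell types, 0 of 4 endothelial, 1 of 6 fibroblast, 2 of 5 immune and 2 of 5 basal markers exceeded 2 CPM in 2 libraries. At the study's threshold, given below, 3 of the luminal markers were lower upon silencing *TRPS1* and 4 upon silencing *CHD4*, 1 basal marker (*TP63*) was higher in each, and 0 fibroblast or immune markers passed. *TP63* was under 2 CPM in both control libraries. It passed the filter in both comparisons only through the knockdown libraries, so its direction here followed from the filter. Over all genes, 3.17% and 2.85% were lower and 2.70% and 2.60% higher upon silencing *TRPS1* and *CHD4*. The part of library 1 or of the luminal markers in the results below was not tested beyond leaving libraries out.

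The targeted transcripts were lowest in their own knockdowns. *TRPS1* had 1445 and 2269 CPM with control siRNA, 1166 and 722 CPM with *TRPS1* siRNA, and 2450 and 1587 CPM with *CHD4* siRNA. The log2 fold change upon silencing *TRPS1* was -0.97 (SE 0.39, edgeR quasi-likelihood F-test, adjusted p = 0.659). *CHD4* had 300 and 285 CPM with control siRNA, 302 and 268 CPM with *TRPS1* siRNA, and 95.8 and 54.3 CPM with *CHD4* siRNA, a log2 fold change of -1.96 (SE 0.42, adjusted p = 0.784). Transcript of both targets therefore remained in the knockdown libraries.

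*NCAM2* differed most clearly between the groups. The control libraries held 204 and 249 CPM (2782 and 3296 counts). The *TRPS1* siRNA libraries held 479 and 420 CPM (4993 and 6399 counts), and the *CHD4* siRNA libraries held 267 and 233 CPM (2863 and 2903 counts). Both *TRPS1* siRNA libraries were above all 4 others, whereas the *CHD4* siRNA libraries overlapped the control. Group means were 226 ± 31.7 CPM with control siRNA, 250.03 ± 24.3 CPM with *CHD4* siRNA and 449 ± 41.6 CPM with *TRPS1* siRNA (SD, n = 2 each). The control and *CHD4* siRNA means are neighbours in this order that differ by less than their spread.

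Upon silencing *TRPS1*, the log2 fold change of *NCAM2* was 0.99 (SE 0.32, 95% interval 0.23 to 1.76), a 1.99-fold difference. The unadjusted p was 0.0188 and the adjusted p was 0.659 in edgeR's quasi-likelihood F-test, so the difference did not pass at an adjusted p under 0.05. It ranked 264 by p among the 12921 genes tested. At an adjusted p under 0.05 none of these genes was called (0.00%), 902 (6.98%) had an unadjusted p under 0.05, and edgeR's likelihood ratio test and DESeq2 called 34 and 32 genes. *NCAM2* was not among them, with an adjusted p of 0.3274 in the likelihood ratio test and 0.3215 in DESeq2. At the study's threshold of over 2-fold and an unadjusted p under 0.05, 2.70% of genes were higher and 3.17% lower, and *NCAM2* missed it by its fold. In 22.8% of the genes tested both *TRPS1* siRNA libraries were above both control libraries, so this order alone is common.

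Upon silencing *CHD4*, the log2 fold change of *NCAM2* was 0.15 (SE 0.35, 95% interval -0.67 to 0.97, adjusted p = 0.925). Here 0 of 12918 genes were called (0.00%) and 769 (5.95%) had an unadjusted p under 0.05, with 58 genes called by the likelihood ratio test and 50 by DESeq2, and 2.60% of genes passed the study's threshold higher and 2.85% lower. Both knockdowns were compared with the same control libraries, so the direct comparison of the knockdown libraries bears on the difference between them. In it, *NCAM2* was lower with *CHD4* siRNA than with *TRPS1* siRNA by a log2 fold change of -0.84 (SE 0.16, 95% interval -1.24 to -0.43), a ratio of 0.56. The unadjusted p was 0.00236 and the adjusted p was 0.119 with the quasi-likelihood F-test, which called 0 of 13143 genes (0.00%), with 2023 genes (15.4%) at an unadjusted p under 0.05. Both *CHD4* siRNA libraries were below both *TRPS1* siRNA libraries for *NCAM2*, as for 23.8% of the genes tested, and above them for *PDCD4*, as for 23.3%. The likelihood ratio test gave an adjusted p of 0.00908 for *NCAM2*, and DESeq2 gave 0.00373. They called 570 and 456 genes. With the replicate number as a block, the adjusted p was 4.28e-10, and 3372 genes were called. The direct difference ranged from -0.95 to -0.73 when each of the 4 libraries was left out in turn, and that upon silencing *TRPS1* ranged from 0.86 to 1.14. Without control library 1 the latter was 0.86, and without control library 2 it was 1.14.

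**Figure D2:**
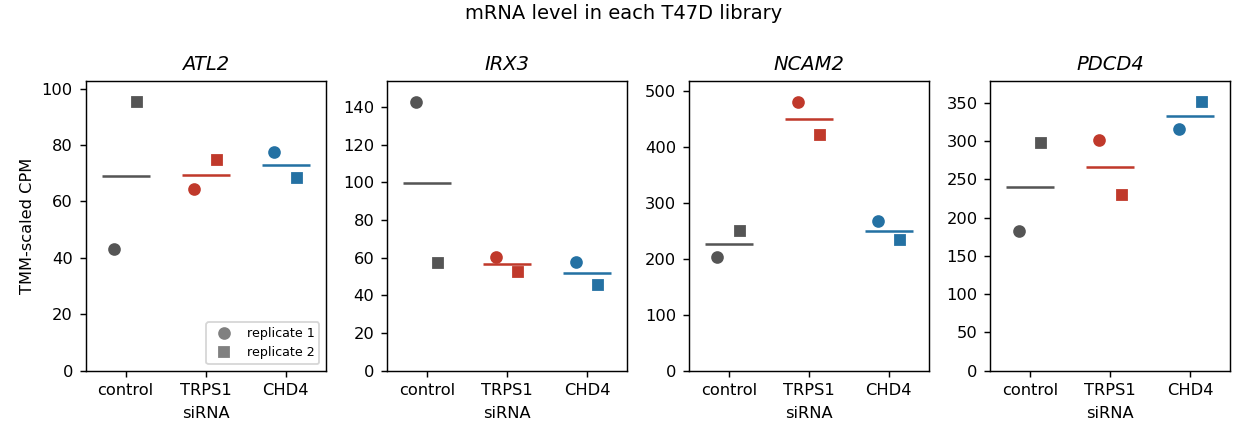
TMM-scaled CPM (y axis, from 0) of the 4 genes in every library, by siRNA (x axis). Circles are replicate 1, squares replicate 2, and horizontal lines the group mean. The *NCAM2* level stands at 479 and 420 CPM in the *TRPS1* siRNA libraries against 204 to 267 CPM in the other 4, and *IRX3* is high in control library 1 (142 CPM) and between 45.6 and 60.5 CPM elsewhere.

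*ATL2*, which holds the covered promoter, showed no difference between the groups beyond the spread of its control libraries. These held 43.2 and 95.1 CPM (589 and 1260 counts), the lowest and the highest of the 6 levels. In 29.2% of the genes that passed the filter the control libraries differed at least as much. The *TRPS1* siRNA libraries held 64.3 and 74.7 CPM and the *CHD4* siRNA libraries 77.6 and 68.3 CPM, all between the control levels. Group means were 69.1 ± 36.7, 69.5 ± 7.36 and 73.0 ± 6.58 CPM (SD, n = 2) with control, *TRPS1* and *CHD4* siRNA, and no neighbours in this order differed beyond their spread. The log2 fold change was 0.01 (SE 0.45, 95% interval -1.08 to 1.11, adjusted p = 0.993) upon silencing *TRPS1* and 0.09 (SE 0.47, 95% interval -1.002 to 1.17, adjusted p = 0.973) upon silencing *CHD4*. These intervals reach past 2-fold in both directions, so they do not exclude a change of that size. The direct comparison was tighter, at 0.08 (SE 0.17, 95% interval -0.34 to 0.49). The value upon silencing *TRPS1* was -0.44 without control library 1 and 0.69 without control library 2, so its direction depended on which control library was used. Upon silencing *CHD4* it was -0.36 without control library 1.

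*PDCD4* was highest in the *CHD4* siRNA libraries. The control libraries held 183 and 297 CPM (2495 and 3934 counts), the *TRPS1* siRNA libraries 302 and 230 CPM, and the *CHD4* siRNA libraries 316 and 350.3 CPM. The *CHD4* siRNA levels were above all others, by a margin over the highest *TRPS1* siRNA level that was smaller than the gap within any group. Group means were 239.8 ± 80.6, 266 ± 50.8 and 333 ± 24.6 CPM (SD, n = 2) with control, *TRPS1* and *CHD4* siRNA. The control and *TRPS1* siRNA means differ by less than their spread. The log2 fold change was 0.48 (SE 0.39, 95% interval -0.42 to 1.38, adjusted p = 0.798) upon silencing *CHD4* and 0.15 (SE 0.38, 95% interval -0.75 to 1.06, adjusted p = 0.901) upon silencing *TRPS1*. In the direct comparison it was 0.33 (SE 0.18, 95% interval -0.11 to 0.78, adjusted p = 0.451), and with the replicate number as a block the adjusted p was 0.0222. Upon silencing *CHD4*, 20.1% of the genes tested were higher in both knockdown libraries than in both control libraries. Without control library 2 the change of *PDCD4* was 0.88, and without control library 1 it was 0.18.

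*IRX3* was set apart by a single library. Control library 1 held 142 CPM (1942 counts) and control library 2 held 57.2 CPM (758 counts), a 2.49-fold gap between replicates. In 21.7% of the genes that passed the filter the control libraries differed at least as much, so such a gap was common. The *TRPS1* siRNA libraries held 60.5 and 52.6 CPM and the *CHD4* siRNA libraries 57.8 and 45.6 CPM. All libraries but control library 1 thus lay within 1.33-fold of one another. Group means were 99.7 ± 60.2, 56.6 ± 5.57 and 51.7 ± 8.57 CPM (SD, n = 2) with control, *TRPS1* and *CHD4* siRNA, and no neighbours in this order differed beyond their spread. The log2 fold change was -0.81 (SE 0.49, 95% interval -1.99 to 0.36, adjusted p = 0.668) upon silencing *TRPS1* and -0.94 (SE 0.50, 95% interval -2.11 to 0.23, adjusted p = 0.792) upon silencing *CHD4*. Without control library 1 these values were -0.01 and -0.13. Without control library 2 they were -1.33 and -1.45. The difference from control therefore rested on control library 1. The knockdowns differed by -0.12 (SE 0.19, 95% interval -0.58 to 0.34, adjusted p = 0.821).

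**Figure D3:**
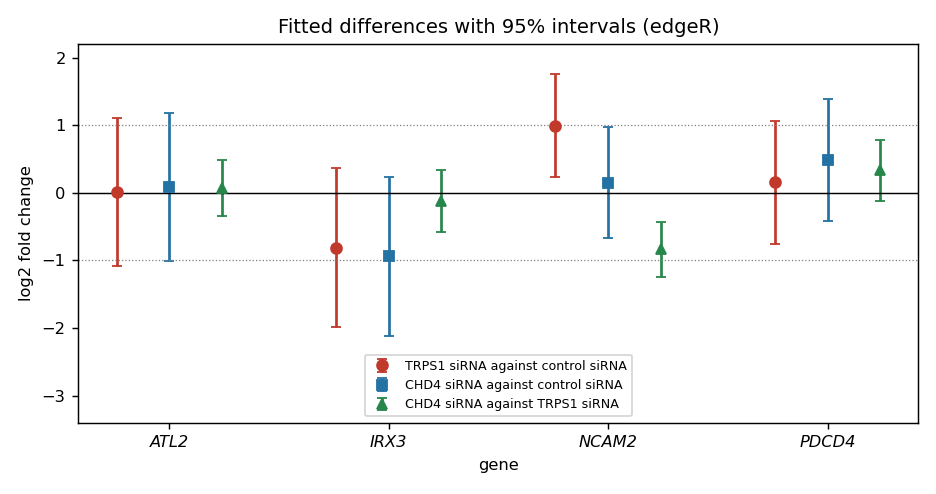
Log2 fold change of the 4 genes (y axis) in each comparison, from edgeR's quasi-likelihood fit, with bars for the 95% interval and dotted lines at 2-fold. The *NCAM2* intervals for *TRPS1* siRNA against control (0.23 to 1.76) and for *CHD4* siRNA against *TRPS1* siRNA (-1.24 to -0.43) leave out 0, and the other 10 include it.

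In the reported fits with the quasi-likelihood F-test, none of the 4 genes passed at an adjusted p under 0.05 in any of the 3 comparisons, nor at the study's threshold. Other tests, fit settings or sets of libraries that called one of them are given above or with the alternatives below. The smallest two-sided p of an exact permutation test over 2 and 2 libraries is 0.3333, so no such test could pass. In bulk RNA a lower level per cell and a smaller number of cells with the transcript cannot be told apart. The sources used here do not state that the replicates were separate cultures, so p-values measure the spread between these libraries, which may be technical.

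Relatives and partners of the 4 genes were examined as 4 lists. None of their members passed at an adjusted p under 0.05 in the reported quasi-likelihood fits. The list of ER shaping and fusion genes holds the atlastins, reticulons and REEP proteins. Of its 19 genes 18 were tested, and their median log2 fold change was -0.04 upon silencing *TRPS1* and -0.05 upon silencing *CHD4*, against -0.02 over all genes tested in both. Upon silencing *TRPS1* 0 genes passed the study's threshold, and upon silencing *CHD4* 1 of 18 did, lower, where the background is 2.85%. This was *REEP6*, which encodes an ER membrane-shaping protein, with 2065 and 651 counts in the control and 397 and 521 in the *CHD4* siRNA libraries (log2 fold change -1.34, SE 0.56, unadjusted p = 0.0452). Without control library 1 this value was -0.30 (adjusted p = 0.638). *ATL3*, the other broadly expressed atlastin, had 315 and 550.1 CPM in the control, 388 and 433 CPM in the *TRPS1* siRNA and 495 and 485 CPM in the *CHD4* siRNA libraries. As for *ATL2*, the control levels enclosed all others. *ATL1*, the neuronal atlastin, had 0 and 17 counts in the control libraries, 44 and 53 in the *TRPS1* siRNA libraries and 40 and 51 in the *CHD4* siRNA libraries. Its levels were higher in all 4 knockdown libraries, but from few counts and without passing the test (unadjusted p = 0.0949 and 0.0824). With 0 and 1.28 CPM in the controls, *ATL1* passed the filter of 2 CPM only through the knockdown libraries. The order of its levels thus followed from the filter. Over all genes tested, 22.8% and 20.1% were higher in both knockdown libraries than in both controls upon silencing *TRPS1* and *CHD4*.

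The Iroquois family is represented by *IRX1* to *IRX6* and the related *MKX*, of which 5 were tested and 0 passed the study's threshold in any comparison. Their median log2 fold change was -0.69 upon silencing *TRPS1* and -0.59 upon silencing *CHD4*, against -0.02 over all genes tested in both. No list median without control library 1 was taken. *IRX5*, the partner of *IRX3* in the same gene cluster, had 711 and 332 counts in the control, 264 and 336 in the *TRPS1* siRNA and 278 and 310 in the *CHD4* siRNA libraries. It was thus also high in control library 1, at 52.1 CPM, against 22.1 to 25.9 CPM in the other 5. Its log2 fold change of -0.70 upon silencing *TRPS1* became -0.08 without that library. *IRX2* had between 135 and 281 counts in every library, and *IRX1* had 2 counts in 1 library and 0 in the others.

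Of the 14 adhesion genes of the NCAM, L1, CADM and related families, 7 were tested and 0 passed the study's threshold. *NCAM1*, the closest relative of *NCAM2*, was near the limit of detection, with 4 and 13 counts in the control, 15 and 5 in the *TRPS1* siRNA and 28 and 5 in the *CHD4* siRNA libraries. The median of the 7 was -0.30 upon silencing *TRPS1*, 0.31 upon silencing *CHD4* and 0.17 in the direct comparison. Over all genes tested it was -0.02, -0.02 and -0.0013. *NCAM2* held the highest value of the list upon silencing *TRPS1* and the lowest in the direct comparison. *L1CAM* and *MCAM*, which encode other immunoglobulin-type adhesion molecules, had the opposite direction to *NCAM2* in the direct comparison. *L1CAM* had 152 and 176 counts with *TRPS1* siRNA and 289 and 248 with *CHD4* siRNA (log2 fold change 0.85, SE 0.25, unadjusted p = 0.0142). *MCAM* had 209 and 230 counts with *TRPS1* siRNA and 330 and 393 with *CHD4* siRNA (log2 fold change 0.84, SE 0.20, unadjusted p = 0.00656). *ALCAM*, a further member, was lower with *CHD4* siRNA than with *TRPS1* siRNA, as *NCAM2* was, by -0.41 (SE 0.14, unadjusted p = 0.0274). These members were named for their unadjusted p after their values were seen.

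The list of PDCD4 and cap-dependent translation initiation holds the eIF4 factors, the 4E-binding proteins, the S6 kinases and the ubiquitin ligase adaptors known to act on PDCD4. Of its 16 genes 15 were tested, and *EIF4A1* was not analysed here. Their median log2 fold change was -0.37 upon silencing *TRPS1* and -0.22 upon silencing *CHD4*, against -0.02 over all genes tested in both. Upon silencing *TRPS1*, 3 of 15 passed the study's threshold, all lower, where the background is 3.17%, and upon silencing *CHD4* 2 of 15 did, both lower, against 2.85%. *EIF4E*, which encodes the cap-binding protein, had 918 and 1092 counts in the control and 365 and 595 in the *TRPS1* siRNA libraries. Its log2 fold change was -1.01 (SE 0.34, unadjusted p = 0.0240). *RPS6KB2*, an S6 kinase gene, had 1897 and 971 counts in the control, 370 and 758 in the *TRPS1* siRNA and 341 and 560 in the *CHD4* siRNA libraries. Its log2 fold changes were -1.31 (SE 0.44, unadjusted p = 0.0227) and -1.46 (SE 0.46, unadjusted p = 0.0142), and -0.77 and -0.91 without control library 1. *EIF4EBP1*, the gene of a protein that holds back eIF4E, had 3272 and 708 counts in the control libraries, 421 and 765 in the *TRPS1* siRNA and 481 and 580 in the *CHD4* siRNA libraries. Its log2 fold changes of -1.69 and -1.67 became -0.23 and -0.21 without control library 1, so they rested on that library. *EIF4A2*, whose product is a binding partner of PDCD4, had 576 and 954 CPM in the control, 1360 and 1258 CPM in the *TRPS1* siRNA and 1425 and 1291 CPM in the *CHD4* siRNA libraries. All knockdown levels were above both controls, an order that 22.8% and 20.1% of all genes tested showed upon silencing *TRPS1* and *CHD4*. The log2 fold changes of *EIF4A2* were 0.78 (SE 0.36, unadjusted p = 0.0695) and 0.84 (SE 0.38, unadjusted p = 0.0629). Without control library 1 these were 0.46 and 0.53, and without control library 2 they were 1.19 and 1.25. In the direct comparison 1 of 15 passed the study's threshold, against 2.12% of genes higher and 1.56% lower. It was *EIF4B*, with 11727 and 10621 counts with *TRPS1* siRNA and 27770 and 19319 with *CHD4* siRNA (log2 fold change 1.20, SE 0.35, unadjusted p = 0.0142). Without *CHD4* siRNA library 1 this value was 0.77, and without *TRPS1* siRNA library 2 it was 0.91, both under 2-fold.

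**Figure D4:**
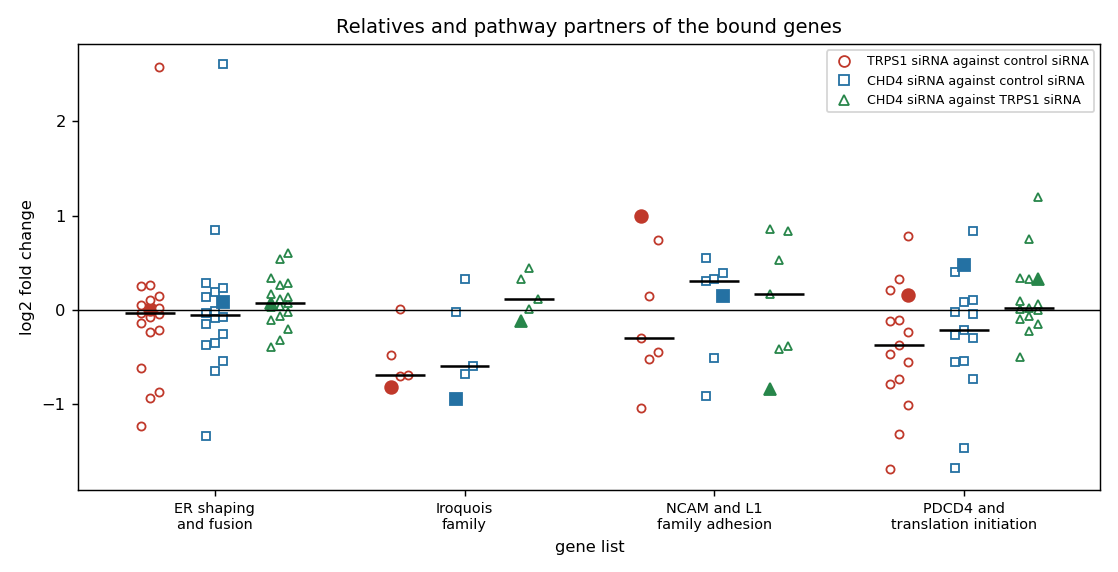
Log2 fold change (y axis) of every tested gene of the 4 lists (x axis) in the 3 comparisons. Filled symbols are *ATL2*, *IRX3*, *NCAM2* and *PDCD4*, open symbols the other genes, and black bars the list medians. *NCAM2* is the highest of its list upon silencing *TRPS1* (0.99) and the lowest in the direct comparison (-0.84).

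The genes around the leading peaks were read in the same fits. RefSeq places 70 genes within 500 kb of the 4 peaks, 20 of them protein-coding, and 25 have counts. *NCAM2* is the only counted gene within 500 kb of its peak. Of 22 genes tested upon silencing *TRPS1*, 1 passed the study's threshold, of 22 upon silencing *CHD4* 1 did, and of 23 in the direct comparison 2 did. The background over all genes is 2.70% higher and 3.17% lower, 2.60% and 2.85%, and 2.12% and 1.56% in these comparisons. All 4 results concern genes on the *PDCD4* side. That of *PDCD4-AS1*, in the direct comparison, concerns a gene that passed the filter only through the *TRPS1* siRNA libraries, where it was higher. None passed at an adjusted p under 0.05 in the reported quasi-likelihood fits.

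*RBM20*, which contains the leading peak near *PDCD4* and encodes a splicing regulator, had 71.1 and 82.5 CPM in the control, 92.4 and 108 CPM in the *TRPS1* siRNA and 116 and 73.8 CPM in the *CHD4* siRNA libraries. Its log2 fold change was 0.39 (SE 0.33, unadjusted p = 0.277) upon silencing *TRPS1*. *DUSP5*, a phosphatase gene for ERK kinases 279 kb from the peak, had 251 and 271 counts in the control, 106 and 139 in the *TRPS1* siRNA and 205 and 180 in the *CHD4* siRNA libraries. It was lower upon silencing *TRPS1* by -1.01 (SE 0.39, unadjusted p = 0.0402, adjusted p = 0.659) and showed -0.20 (SE 0.42) upon silencing *CHD4*. *ADRA2A*, which encodes an adrenergic receptor and lies 285 kb away, had 33 and 20 counts in the control, 55 and 42 in the *TRPS1* siRNA and 165 and 91 in the *CHD4* siRNA libraries. Both *CHD4* siRNA libraries were above the other 4, where 20.1% of genes tested were above both controls and 23.3% above both *TRPS1* siRNA libraries. *ADRA2A* was higher upon silencing *CHD4* by 2.53 (SE 0.66, unadjusted p = 0.00573, adjusted p = 0.792), and by 1.53 (SE 0.49, unadjusted p = 0.0210) in the direct comparison. Without *CHD4* siRNA library 1 these were 1.92 and 0.89 (unadjusted p = 0.157 and 0.0838), and without *TRPS1* siRNA library 2 the direct value was 1.13 (unadjusted p = 0.0778).

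*PDCD4-AS1* lies next to the start of *PDCD4* on the opposite strand and had few counts, with 50 and 18 in the control, 41 and 47 in the *TRPS1* siRNA and 18 and 13 in the *CHD4* siRNA libraries. In the direct comparison it was lower with *CHD4* siRNA by -1.35 (SE 0.41, unadjusted p = 0.0171, adjusted p = 0.220), while *PDCD4* itself showed 0.33. *PDCD4-AS1* exceeded 2 CPM there only with *TRPS1* siRNA, at 3.93 and 3.08 CPM against 1.68 and 1.04 CPM with *CHD4* siRNA. It passed the filter only through the libraries where it was higher, so its direction followed from the filter. *PDCD4* also overlaps *BBIP1* and *MIR4680*, and whether the counting used strand is not given in the sources used here, so reads of overlapping genes cannot be told apart. *BBIP1*, a gene of the BBSome complex of cilia, was lower with *CHD4* siRNA than with *TRPS1* siRNA by -0.71 (SE 0.23, unadjusted p = 0.0225). Around *ATL2*, *DHX57* was lower in the same comparison by -0.59 (SE 0.15, unadjusted p = 0.00900), and the other 8 genes tested there had unadjusted p-values over 0.05. *HNRNPLL*, the nearest other gene tested there at 184 kb, had log2 fold changes of 0.06 (SE 0.44) upon silencing *TRPS1* and 0.20 (SE 0.45) upon silencing *CHD4*. Around *IRX3*, *FTO* had -0.43 (SE 0.18, unadjusted p = 0.0561) and *CRNDE* 0.11 in the direct comparison.

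**Figure D5:**
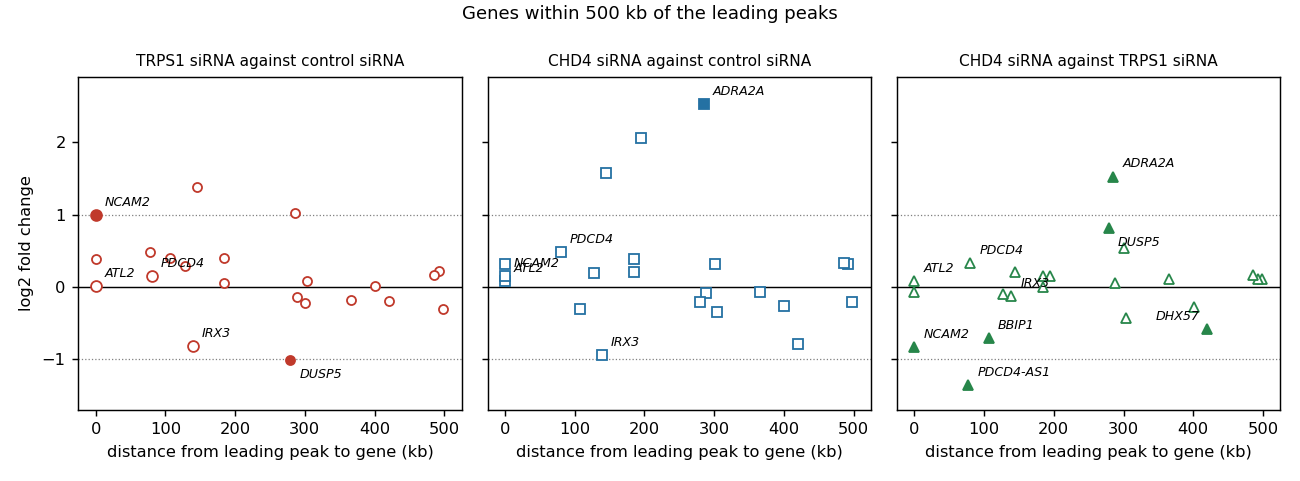
Log2 fold change (y axis) of the genes tested within 500 kb of a leading peak against the distance from the peak to the gene in kb (x axis), with 1 panel per comparison. Filled symbols have an unadjusted p under 0.05, and dotted lines mark 2-fold. *NCAM2* at distance 0 is filled in the first and the last panel, and the genes past 2-fold that are filled are *DUSP5*, *ADRA2A* and *PDCD4-AS1*.

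The genes with the pattern most like each of the 4 were found by Pearson's r of log2 CPM over the 6 libraries among 13268 other genes, as a description without a test. The 6 points share 3 conditions, 2 libraries each, and the libraries' depth. *NCAM2* was followed most closely by *PLPP6* (r = 0.996), *B3GNTL1* (0.993) and *CATSPER2* (0.993), and leaving out control library 1 kept these at 0.991 to 0.995. *PLPP6* had 222 and 248 counts in the control, 306 and 413 in the *TRPS1* siRNA and 199 and 220 in the *CHD4* siRNA libraries, so it shared the high *TRPS1* siRNA level. *CATSPER2* had few counts, with 26 and 32 in the *TRPS1* siRNA libraries and 16 or 17 in the others. It exceeded 2 CPM only with *TRPS1* siRNA, where *NCAM2* was high, so its likeness followed in part from the filter. The r with *TRPS1* itself over 6 libraries, and over 5 without control library 1, was -0.645 and -0.773 for *NCAM2*, 0.280 and 0.502 for *ATL2*, 0.013 and 0.169 for *IRX3*, and 0.433 and 0.709 for *PDCD4*.

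*IRX3* was most like *CYSTM1* (r = 0.9997), *ZBTB48* (0.999) and *NOL12* (0.997). *CYSTM1* had 647 counts in control library 1 and 170 to 247 in the others, the same single high library. *IRX5* ranked 196 for likeness to *IRX3*, with an r of 0.967 that fell to 0.315 without control library 1. *ATL2* was most like *SUMF1* (0.996), *STX6* (0.991) and *IREB2* (0.986), which were all lowest in control library 1. *PDCD4* was most like *LINC01209* (0.984), *GPATCH2* (0.983) and *KIAA1143* (0.979), and *LINC01209* had 0 counts in control library 1 and 8 to 45 elsewhere. *LINC01209* exceeded 2 CPM only with *CHD4* siRNA, where *PDCD4* was highest, so its likeness also followed in part from the filter.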

How the data were processed

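Per the labels and the methods of the paper, reads were trimmed by the authors, aligned with STAR (RNA-seq) or BWA 0.7.12-r1039 (ChIP-seq), and summed per gene with HTSeq 0.9.0. The authors deposited unnormalized counts in 2 tables, whose control counts were equal for all 18262 shared genes. Peaks were called with MACS2 2.1.1, and 1 list of positions was deposited. The build in the submitters' processing notes is hg38. Pooling of ChIP replicates, the counting annotation and its strand setting are not given in the sources used here. The labels name an siRNA for *CHD4*, the RNA-seq methods an shRNA.

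The 4 genes, their peaks and the gene lists were chosen with earlier results of these data known. The link from gene to leading peak comes from the paper's peak annotation, from which no value was taken. Each comparison was fitted in edgeR 4.0.16 (R 4.3.3) on its 4 libraries. A gene entered when 2 of them or more exceeded 2 CPM, TMM gave the scaling, and no covariate was used. The quasi-likelihood F-test was adjusted over all genes tested by Benjamini and Hochberg's method. The SE is |log2 fold change|/√F, and 95% intervals use the t distribution of that fit. The fit was run on simulated data whose libraries all had the same spread, unlike the control and knockdown libraries here. Named genes are the 4 genes, *TRPS1* and *CHD4*, close relatives, and the 3 genes with the highest r for each. Further named are list genes that pass the study's threshold, and genes within 500 kb of a leading peak. The latter are nearest to it, contain it or pass that threshold. Outside this rule, *L1CAM*, *MCAM*, *ALCAM*, *DHX57* and *BBIP1* were named for an unadjusted p under 0.05 in the direct comparison, and *FTO* as a neighbour of *IRX3*. Other list genes with such a p, such as *BTRC* in that comparison and *CADM1* upon silencing *CHD4*, were not described. Gene positions and promoter windows are from RefSeq, GRCh38.p14, where *IRX3* has no window. Alternatives were the likelihood ratio test of edgeR, DESeq2 1.42.0, RLE factors, library sizes alone, no filter, over 2 CPM in every library, a replicate block, a prior count of 2, all 6 libraries in 1 fit and leaving out each library, where a lone library is assumed to vary like the other group. Python 3.11.15, pandas 2.3.3, scipy 1.17.1 and matplotlib 3.10.9 were also used.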

Additional observations from a re-analysis of the deposited data

How the results depend on the processing

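Of 156 values of the 4 genes under an alternative, 137 kept their direction and their side of an adjusted p of 0.05, 9 turned direction and 10 passed that p where the reported value did not. The cause of these shifts was not tested. The changes of direction concern values near 0. Upon silencing *TRPS1*, *ATL2* was -0.019 without a filter and ranged from -0.44 to 0.69 when each library was left out in turn, and *PDCD4* ranged from -0.15 to 0.54, *IRX3* from -1.33 to -0.010 and *NCAM2* from 0.86 to 1.14. Upon silencing *CHD4*, *ATL2* ranged from -0.36 to 0.77, *IRX3* from -1.45 to -0.13 and *PDCD4* from 0.18 to 0.88. In the direct comparison, *ATL2* ranged from -0.035 to 0.21 and *IRX3* from -0.31 to 0.053. *NCAM2* passed there with the likelihood ratio test (-0.84), DESeq2 (-0.83), no filter (-0.84) and the replicate block (-0.84), and kept its direction in all 13 alternatives. Among the other genes, the change of *CHD4* upon silencing *TRPS1* was 0.093 with library sizes alone, 0.021 with over 2 CPM in every library and from -0.10 to 0.061 without single libraries. Without single libraries, *TRPS1* and *IRX5* upon silencing *CHD4* ranged from -0.20 to 0.49 and from -1.03 to 0.039.

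Counts over all genes moved more than the values of single genes. At an adjusted p under 0.05, *TRPS1* siRNA against control gave 0 genes in the quasi-likelihood F-test, 34 with the likelihood ratio test, 32 with DESeq2 and from 0 to 6070 without single libraries. *CHD4* siRNA against control gave 0, 58, 50, 111 without a filter and from 0 to 3874 without single libraries. The direct comparison gave 0, 570, 456, 424 without a filter and from 0 to 103 without single libraries. At the study's threshold, the counts were 759, 704 and 483 as reported, 1359, 1403 and 751 without a filter, and, for the direct comparison, 313 with over 2 CPM in every library and 320 with all 6 libraries in 1 fit. Without single libraries they ranged from 74 to 4304 for *TRPS1* siRNA and from 91 to 3969 for *CHD4* siRNA. In both comparisons with control the largest counts came from fits without control library 2, which left library 1 as the lone control.

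The replicate number marks no shared batch in the labels, and deviations from group means correlated across genes at 0.051 between control and *TRPS1* siRNA, 0.0095 between control and *CHD4* siRNA and 0.615 between the knockdowns. With the replicate block, 32 genes passed at an adjusted p under 0.05 upon silencing *TRPS1* and 1221 passed the study's threshold, 44 passed at that adjusted p upon silencing *CHD4*, and 3372 did in the direct comparison. The block took *NCAM2* (-0.84) and *PDCD4* (0.34) past an adjusted p of 0.05 in the direct comparison and changed no other call of the 4 genes.

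Within 100 kb in place of 500 kb of the leading peaks, *NCAM2* and *PDCD4* had 1 other peak each, and 0, 0 and 1 genes passed the study's threshold in the 3 comparisons. The gene that passed was *PDCD4-AS1*, whose direction followed from the filter. Within 1000 kb *IRX3* had 7 other peaks. In the covered *ATL2* window the GATA core gave 4 matches against 1 hexamer. With 2 libraries in a group, none of which has a known culture of origin, and control libraries that differ by a median of 1.68-fold, the 95% intervals against control reach past 2-fold in both directions for *ATL2*, past 2-fold lower for *IRX3* and past 2-fold higher for *PDCD4*.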
